A study of Mus musculus with 24 samples.

Results

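The mRNA levels of 10 mouse genes that carry signals away from Toll-like receptors (TLRs) were followed across 24 RNA-seq libraries. They comprised the adaptor genes Myd88, Tirap, Ticam1 and Ticam2, the IRAK kinase genes Irak1, Irak2, Irak3 and Irak4, the ubiquitin ligase gene Traf6 and the kinase gene Map3k8. The 10 genes were taken by symbol from the 23420 gene symbols counted in each library, and all 10 were found, had counts above 0 in every library and could be tested in every comparison. The libraries came from adult C57BL/6 mice and fell into 10 groups. Bone marrow-derived macrophages (BMDMs) were grown from bone marrow with M-CSF and left unstimulated (0 h) or stimulated for 6 h with Kdo2-lipid A (KLA), a purified lipid A that activates TLR4. A Tet cohort held TET iTKO and WT cells and a Tdg cohort held TDG iKO and WT cells, with 2 libraries for each genotype and time. The remaining 8 libraries were Th2 cells, CD4 T cells from spleen and lymph nodes that were activated through CD3 and CD28 and polarised with 1000 U/ml IL-4 and an antibody to IFN-γ before growth in 20 U/ml IL-2, as 4 TDG iKO and 4 WT libraries.

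TET iTKO mice carried floxed alleles of Tet1, Tet2 and Tet3 and a tamoxifen-activated Cre, and TDG iKO mice carried floxed Tdg alleles and a tamoxifen-activated Cre. A reporter behind a floxed stop cassette marked cells in which Cre had acted, and tamoxifen was given both to mice with Cre and to control mice. Whether the WT mice carried floxed alleles or Cre is not given in the sources used here. Deletion was induced in the mouse and not in a chosen cell type, so the macrophages grew from marrow that had already been exposed to it. The comparisons addressed which genes respond to a TLR4 agonist and whether loss of the TET dioxygenases, which oxidise 5-methylcytosine, or of TDG, which excises its most oxidised forms from DNA, alters these levels.

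TLRs and receptors of the IL-1 family have no enzymatic activity of their own and signal through proteins that share their TIR domain. MyD88 assembles with the kinases IRAK4, IRAK1 and IRAK2, and the complex engages TRAF6, whose ubiquitin chains lead to activation of NF-kB and MAP kinases. At TLR4, TIRAP (also called MAL) brings in MyD88 at the plasma membrane, while TRAM, the product of Ticam2, brings in TRIF, the product of Ticam1, which drives type I interferon production from endosomes. Irak3 encodes IRAK-M, a pseudokinase found mainly in myeloid cells and known as a brake on this pathway. Map3k8 encodes TPL-2, a kinase released from the NF-kB precursor p105 that activates the ERK branch.

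In the mm9 annotation Myd88 lay at chr9:119245052-119250529, Tirap at chr9:34994370-35007490, Ticam1 at chr17:56408742-56416209, Irak1 at chrX:71259253-71269257 and Irak3 at chr10:119578704-119639186, all on the minus strand. Irak2 lay at chr6:113588461-113645003, Irak4 at chr15:94374074-94412246 and Traf6 at chr2:101518586-101541826 on the plus strand. The positions of Ticam2 and Map3k8 are not given here. Some reads could be shared with neighbours, because exons of Tmed7 on the same strand covered 21.334% of the exonic bases of Ticam2, and exons on the opposite strand covered 7.85% of Irak4 (Twf1), 5.223% of Irak3 (Tmbim4) and 2.601% of Myd88 (Acaa1a). In Irak2, 11.725% of the 50-base stretches of its longest coding transcript occurred more than once in the genome.

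Promoter sequences are shown for Myd88, Irak2 and Irak3, whose mRNA rose with KLA, and for Irak1, which did not pass the test. The 250 bases before the RefSeq start (table of build GRCm38.p6) were matched to mm9 and are given 5′ to 3′ on the strand of the gene. Capitals mark a match to GAAA, any 2 bases and GAAA, a spacing found in interferon-response elements, in Myd88 and to the NF-kB consensus in Irak1.
Myd88, chr9:119249137-119249386, minus strand: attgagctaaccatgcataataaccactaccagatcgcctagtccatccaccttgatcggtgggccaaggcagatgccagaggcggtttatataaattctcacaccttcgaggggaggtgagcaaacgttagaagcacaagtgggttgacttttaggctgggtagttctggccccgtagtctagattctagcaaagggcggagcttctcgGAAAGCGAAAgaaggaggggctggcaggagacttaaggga
Irak1, chrX:71269261-71269510, minus strand: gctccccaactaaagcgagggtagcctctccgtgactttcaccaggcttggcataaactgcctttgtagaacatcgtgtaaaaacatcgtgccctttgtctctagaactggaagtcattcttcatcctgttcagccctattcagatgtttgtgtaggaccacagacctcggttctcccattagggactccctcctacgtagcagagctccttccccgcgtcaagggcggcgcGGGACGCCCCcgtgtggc
Irak2, chr6:113588211-113588460, plus strand: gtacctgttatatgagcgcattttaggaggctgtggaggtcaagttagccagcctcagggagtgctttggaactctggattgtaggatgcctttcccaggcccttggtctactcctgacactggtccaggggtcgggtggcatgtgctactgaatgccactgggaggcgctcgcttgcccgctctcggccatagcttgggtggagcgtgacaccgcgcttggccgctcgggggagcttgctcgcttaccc
Irak3, chr10:119639252-119639436, minus strand, without the last 65 bases of the window, which lie in an exon of Tmbim4: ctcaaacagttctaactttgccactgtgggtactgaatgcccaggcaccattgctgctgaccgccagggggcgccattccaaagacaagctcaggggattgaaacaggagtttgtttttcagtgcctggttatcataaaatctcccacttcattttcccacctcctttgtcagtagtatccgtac

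The match in Myd88 began 40 bases before the start and that in Irak1 began 18 bases before it. The whole window of Myd88 lies inside the span given above for this gene, downstream of its annotated 5′ end. The last 23 bases shown for Myd88 lie in an annotated exon of Myd88, and the last 15 bases shown for Irak1 lie in the microRNA gene Mir718. Windows were found for 8 of the 10 genes (11 windows), and these matches were the ones found among the windows of the 8 genes when both strands were searched for the NF-kB consensus, this GAAA pair, the AP-1 site TGANTCA and the CRE site TGACGTCA. Among all 32851 promoter windows of this length 7.25% held the NF-kB consensus, 2.98% the GAAA pair, 6.75% TGANTCA and 1.55% TGACGTCA. The full 250-base windows held 9 CpGs in Myd88, 13 in Irak1, 12 in Irak2 and 6 in Irak3. Over all windows the median was 6 and the interquartile range 2 to 16. The Irak3 count includes the bases not shown, and the window of another RefSeq start of Irak3 held 19 CpGs. These matches are a description of the letters, and no match says only that these letters are not in this window.

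Assigned counts per library ranged from 4982950 to 26657729 with a median of 14853861, and the lowest count of any of the 10 genes in any library was 8. Th2 replicates 3 and 4 of each genotype differed by little more than counting noise (mean chi-square per gene 1.34 and 1.51, against 10.9 to 218 in other replicate pairs), so they were counted as 1 sample and Th2 groups had n = 3. The 5 macrophage markers found (Csf1r, Cd68, Itgam, Lyz2 and Mertk) summed to 16700 to 23700 CPM (counts scaled to a common library total) in BMDMs and 2.03 to 5.83 in Th2 cells, where Csf1r and Mertk were at 0. The 6 T cell markers summed to 2100 to 2950 CPM in Th2 cells and 7.57 to 26.9 in BMDMs, and 6 Th2 markers to 630 to 788 in Th2 cells. Counts per gene did not check the deletions, since Tdg had 0 to 7 counts in every library and Tet2 was at 702.1 to 736.9 normalised counts in unstimulated TET iTKO BMDMs against 505.5 to 602.7 in WT. Counts of whole genes do not separate the floxed exons. The study itself measured loss of these exons by qRT-PCR in Th2 cells, and transcripts of the targeted genes by qRT-PCR in BMDMs. Xist was at 2097 to 104420 counts in all but 3 libraries, which were both libraries of WT replicate 1 of the Tet cohort and the Th2 TDG iKO library of replicate 1. In these bulk samples fewer cells of a type and less RNA per cell cannot be told apart.

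Levels below are normalised counts, which are read counts divided by a size factor for each library on a single scale for all 24 libraries, and differences are log2 fold changes of the DESeq2 Wald test with a standard error (SE). A gene was called at an adjusted p under 0.05, adjusted over all genes tested.

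KLA raised the mRNA of Myd88, Ticam2, Irak2 and Irak3 in all 4 genotype groups of BMDMs and that of Map3k8 in both groups of the Tet cohort. Irak3 rose by 3.71-fold to 7.57-fold, the largest rise of the 10 in every group but TET iTKO, where Ticam2 rose by 4.08-fold, and after KLA it was the most abundant of the 10 per length in WT cells. Tirap, Ticam1, Irak1, Irak4 and Traf6 did not pass the test in any group. Members called higher numbered 5 of 10 in WT of the Tet cohort, where 13.1% of 11917 genes were called higher, and 5 of 10 in TET iTKO, where the share was 12.8% of 11352. They numbered 4 of 10 in WT of the Tdg cohort (5.29% of 11633 genes) and 4 of 10 in TDG iKO (4.27% of 11633 genes). In no group was a member called lower, while 11.1%, 11.6%, 3.32% and 2.81% of genes in that order were. The groups at 0 h and 6 h did not overlap for 6, 9, 6 and 6 of the 10 genes, against 63.9%, 62.9%, 49.2% and 45.9% of all genes tested, so this count did not set the members apart. The median log2 change of the 10 genes was 0.54, 0.42, 0.62 and 0.63 in the 4 groups, while the median of all genes tested lay between -0.03 and 0.00.

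Of the adaptors, Myd88 was at 1654 and 1641 normalised counts in unstimulated WT cells of the Tet cohort and at 2981 and 3578 after KLA, and in TET iTKO it was at 1853 and 2088 before and 2874 and 3157 after. In the Tdg cohort it was at 2161 and 2610 in WT before and 4430 and 4871 after, and at 2509 and 2312 before and 4302 and 5090 after in TDG iKO. The 6 h libraries lay above the 0 h libraries in every group, without overlap. The log2 change was 1.00 (SE 0.124, DESeq2 adjusted p = 1.28e-14) in WT of the Tet cohort and 0.61 (SE 0.123, DESeq2 adjusted p = 6.83e-06) in TET iTKO. It was 0.96 (SE 0.263, DESeq2 adjusted p = 0.00508) in WT of the Tdg cohort and 0.97 (SE 0.262, DESeq2 adjusted p = 0.00507) in TDG iKO. These calls in the Tdg cohort were lost with edgeR, where the adjusted p was 0.0561 and 0.0719. They were also lost without WT 6 h replicate 1 (log2 change 1.05) or 2 (0.88) and in a fit of the groups compared alone (0.97, DESeq2 adjusted p = 0.0623) in WT, and without replicate 1 (1.03) or 2 (0.91) at 0 h or replicate 2 (0.84) at 6 h in TDG iKO.

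Ticam2, whose product links TRIF to TLR4, was at 306.2 and 247.7 normalised counts in unstimulated WT cells of the Tet cohort and at 737.6 and 948.3 after KLA. In TET iTKO it was at 306.5 and 300.3 before and at 1050 and 1422 after. In the Tdg cohort it stood at 298.7 and 207.1 in WT and 324.1 and 362 in TDG iKO before KLA, and at 1186 and 1216 in WT and 1169 and 1808 in TDG iKO after it. All 8 stimulated libraries exceeded all 8 unstimulated libraries. The log2 change was 1.62 (SE 0.187, DESeq2 adjusted p = 1.33e-16) in WT of the Tet cohort and 2.03 (SE 0.186, DESeq2 adjusted p = 6.33e-26) in TET iTKO. In WT of the Tdg cohort it was 2.24 (SE 0.348, DESeq2 adjusted p = 1.53e-08) and in TDG iKO 2.13 (SE 0.34, DESeq2 adjusted p = 3.85e-08). Part of the Ticam2 exons is shared with Tmed7 on the same strand, as given above.

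The other adaptor genes did not pass the test. Tirap, the sorting adaptor of MyD88, ranged from 371 to 529.7 normalised counts in the 8 unstimulated libraries and from 453.7 to 664.6 in the 8 stimulated ones, with log2 changes of 0.20 to 0.37. Ticam1, which encodes TRIF itself, ranged from 290.9 to 534 and from 326.6 to 632, with log2 changes of 0.00 to 0.50. Pooled over all groups, the ranges of both genes at 0 h and 6 h overlapped. Within groups, the times did not overlap for Tirap in WT of the Tet cohort and TET iTKO and for Ticam1 in TET iTKO. They overlapped in the other groups. The 95% interval of the change in WT of the Tet cohort was -0.05 to 0.58 for Tirap and -0.36 to 0.36 for Ticam1.

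Among the kinases, Irak3 was at 1430 and 1268 normalised counts in unstimulated WT cells of the Tet cohort and at 6790 and 6807 after KLA, and TET iTKO went from 1968 and 1990 to 7620 and 7065. In the Tdg cohort WT went from 1119 and 730.9 to 7149 and 6897, and TDG iKO from 1301 and 1268 to 6989 and 7071. The 8 stimulated libraries lay within 6790 to 7620 in both cohorts and all genotypes, while the unstimulated ones were spread from 730.9 to 1990. The log2 change was 2.34 (SE 0.107, DESeq2 adjusted p = 1.48e-103) in WT of the Tet cohort and 1.89 (SE 0.106, DESeq2 adjusted p = 2.21e-68) in TET iTKO. It was 2.92 (SE 0.285, DESeq2 adjusted p = 9.12e-22) in WT of the Tdg cohort and 2.46 (SE 0.282, DESeq2 adjusted p = 8.87e-16) in TDG iKO.

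Irak2, a kinase that sustains signalling through TRAF6, rose from 788.4 and 833.5 to 1527 and 2006 normalised counts in WT of the Tet cohort and from 868.1 and 906.4 to 1741 and 2339 in TET iTKO. In the Tdg cohort it rose from 747.3 and 694.4 to 2488 and 2564 in WT and from 696.4 and 1070 to 2122 and 2790 in TDG iKO. Here too no stimulated library overlapped an unstimulated one. The log2 change was 1.13 (SE 0.161, DESeq2 adjusted p = 3.57e-11) in WT of the Tet cohort, 1.20 (SE 0.161, DESeq2 adjusted p = 1.55e-12) in TET iTKO, 1.81 (SE 0.321, DESeq2 adjusted p = 1.25e-06) in WT of the Tdg cohort and 1.48 (SE 0.318, DESeq2 adjusted p = 0.000127) in TDG iKO. The last of these calls was lost without TDG iKO 6 h replicate 2, where the change was 1.27 (DESeq2 adjusted p = 0.0511).

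Irak1 and Irak4, the kinases that act first in the MyD88 complex, did not pass the test in any group. Irak1 ranged from 1107 to 2071 normalised counts at 0 h and from 1148 to 1590 at 6 h, with log2 changes of -0.10 to 0.07. Irak4 ranged from 538.5 to 757 and from 523.7 to 646.7, with log2 changes of -0.15 to -0.05. In WT of the Tet cohort the 95% interval of the change was -0.29 to 0.17 for Irak1 and -0.44 to 0.17 for Irak4. In WT of the Tdg cohort, where the 2 unstimulated libraries differed at 1107 and 2071, the interval for Irak1 was wider, -0.86 to 0.66.

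Traf6, which joins the IRAK complex to the NF-kB and MAP kinase relays, ranged from 392.9 to 625.2 normalised counts at 0 h and from 588.2 to 722.1 at 6 h. Its log2 changes of 0.13 to 0.45 did not pass the test. Map3k8 went from 274.8 and 312.7 to 445.7 and 579.8 in WT of the Tet cohort and from 288 and 296.5 to 482.6 and 479.3 in TET iTKO. In the Tdg cohort it stood at 444.8 and 252.8 in WT and 313 and 334.6 in TDG iKO before KLA, and at 548.3 and 625.7 in WT and 519.6 and 671.8 in TDG iKO after it. The stimulated libraries exceeded the unstimulated ones in every group. The log2 change was 0.81 (SE 0.182, DESeq2 adjusted p = 7.52e-05) in WT of the Tet cohort and 0.72 (SE 0.183, DESeq2 adjusted p = 0.000634) in TET iTKO. It was 0.74 (SE 0.365, DESeq2 adjusted p = 0.23) in WT of the Tdg cohort and 0.89 (SE 0.361, DESeq2 adjusted p = 0.139) in TDG iKO, neither of which was called. Without WT 0 h replicate 1 of the Tdg cohort the change in WT was 1.20 and was called (DESeq2 adjusted p = 0.0125), in a fit that called 2218 genes in place of 1001.

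**Figure D1:**
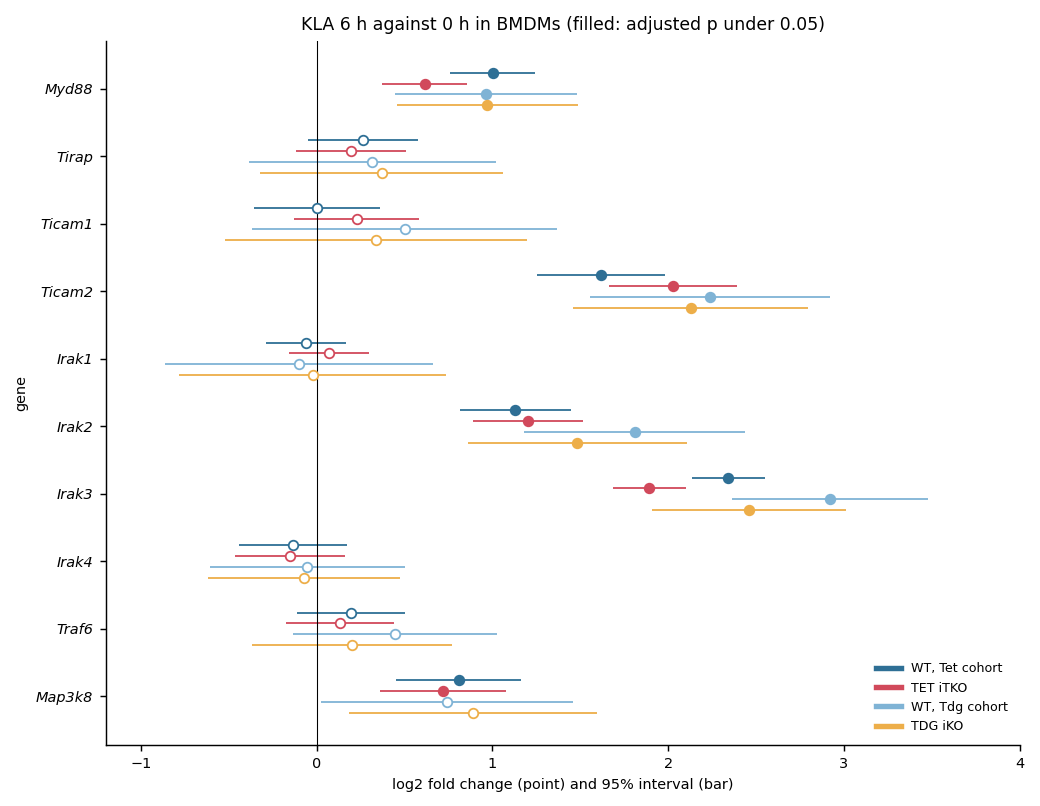
Log2 fold change (6 h minus 0 h of KLA) of the 10 genes in WT of the Tet cohort, TET iTKO, WT of the Tdg cohort and TDG iKO (n = 2 libraries a group), with bars for the 95% interval of the DESeq2 Wald test and filled points for adjusted p under 0.05. Myd88, Ticam2, Irak2 and Irak3 are filled in all 4 groups, Map3k8 in the 2 groups of the Tet cohort, and the intervals of the Tdg cohort are wider.

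Loss of the TET dioxygenases went with a higher level of Irak3 in unstimulated macrophages. Irak3 was at 1968 and 1990 normalised counts in the TET iTKO libraries and at 1430 and 1268 in the WT libraries of the same cohort. The 2 knockout libraries lay above both WT libraries, and also above the 4 unstimulated libraries of the Tdg cohort (730.9 to 1301). The difference was 1.47-fold (95% interval 1.27 to 1.70, log2 0.56, SE 0.109, DESeq2 adjusted p = 1.87e-05). It was called with edgeR (adjusted p = 0.00982) and in every alternative run, in which the log2 difference ranged from 0.47 to 0.64. Irak3 was the single member called of 10, in a comparison in which 7.5% of 12200 genes were called. Myd88 had 1853 and 2088 normalised counts in TET iTKO and 1654 and 1641 in WT, without overlap, but its log2 difference of 0.26 (SE 0.124) was not called (DESeq2 adjusted p = 0.247). Of the other 8 genes, Tirap and Irak2 had groups that did not overlap, and their log2 differences of 0.18 and 0.13 were not called. Over all genes tested 53.5% had groups that did not overlap, against 4 of these 10. The remaining log2 differences ran from -0.24 (Irak4) to 0.14 (Ticam2). In this comparison Xist was at 0 counts in WT replicate 1 and at 17088 to 22210 in the other libraries of both genotypes. The tests did not take this imbalance into account.

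Some markers of other cells differed between TET iTKO and WT in these libraries. At 0 h, 4 B cell markers summed to 5.48 to 21.8 CPM in TET iTKO and 1.49 to 1.82 in WT, 4 neutrophil markers to 65.4 to 135 and 28.1 to 51.9, and 4 dendritic cell markers to 1.14 to 1.21 and 0.186 to 0.195, with Clec9a at 0 in WT. All of the B cell and neutrophil markers found were detected in both genotypes. The 5 macrophage markers summed to 18900 to 19100 in TET iTKO and 22700 to 23700 in WT, and the 6 T cell markers to 17.5 to 20.3 and 17.3 to 26.9. In the Tdg cohort at 0 h the neutrophil markers spread within a genotype, from 37.1 to 155 in WT and from 29.5 to 482 in TDG iKO. There the dendritic cell markers were at 0 to 2.85 and 0.618 to 3.85, the B cell markers at 2.81 to 4.28 and 0.928 to 5.77, and the macrophage markers at 18500 to 23500 and 18800 to 20300. The part of these markers in the Irak3 difference was not tested.

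After 6 h of KLA the difference in Irak3 was no longer called. Irak3 was at 7620 and 7065 normalised counts in TET iTKO and 6790 and 6807 in WT, a log2 difference of 0.11 (SE 0.105, 95% interval -0.10 to 0.31, DESeq2 adjusted p = 0.74). At this time Ticam2 was called. Ticam2 was at 1050 and 1422 normalised counts in TET iTKO and 737.6 and 948.3 in WT, and the groups did not overlap although the libraries within each group differed widely. The log2 difference was 0.55 (SE 0.181, DESeq2 adjusted p = 0.0406). Ticam2 was thus 1 of 10 members called, beside 6.58% of 11634 genes. The call was lost with edgeR (adjusted p = 0.0934), in a fit of the groups compared alone (log2 difference 0.54), without WT 6 h replicate 1 (0.37) and without TET iTKO 6 h replicate 2 (0.32). The groups did not overlap for 5 of 10 members, against 47.4% of genes. The other 8 genes had log2 differences of -0.26 (Irak4) to 0.20 (Irak2), none called. At 6 h the B cell markers summed to 3.83 to 18.8 CPM in TET iTKO and 1.72 to 2.36 in WT, the neutrophil markers to 70.1 to 105 and 34.7 to 36.4, the dendritic cell markers to 0.46 to 0.727 and 0.238 to 0.303, and the macrophage markers to 17300 to 17900 and 21300 to 23000. Their part was not tested.

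Whether the KLA response itself differed between TET iTKO and WT was tested as an interaction. The response of Irak3 was smaller in TET iTKO by 0.45 on the log2 scale (estimate -0.45, SE 0.151, unadjusted p = 0.00285 by the DESeq2 Wald test), which was not called over all genes (DESeq2 adjusted p = 0.29). With the replicate number nested in genotype as a block the estimate was -0.45 (SE 0.125) and was called (DESeq2 adjusted p = 0.0161), whereas with the number as a block shared by the genotypes it was not (DESeq2 adjusted p = 0.143). The 0 h and 6 h libraries of a number deviated together in both genotypes, so the blocked value stands beside the unblocked one. Myd88 had an estimate of -0.39 (SE 0.175, DESeq2 adjusted p = 0.921) and Ticam2 one of 0.41 (SE 0.264, DESeq2 adjusted p = 1). Without the block 0 of 10 members were called, beside 0.426% of 12200 genes, and 2 members, Irak3 and Myd88, had an unadjusted p under 0.05, as did 4.45% of genes. With the nested block 1 of 10 was called, beside 2.48% of 9089 genes. edgeR called 0 members and 1 gene in all (0.00874% of 11441).

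Loss of TDG gave no called difference in the 10 genes. In unstimulated BMDMs, in KLA-stimulated BMDMs and in Th2 cells 0 of 10 members were called with DESeq2 or edgeR, and 0 had an unadjusted p under 0.05 with either tool, in comparisons in which 0% of all genes tested were called and 265, 34 and 77 genes in turn (1.76%, 0.226% and 0.487%) had an unadjusted DESeq2 p under 0.05. The genotypes did not overlap for 3, 0 and 1 of the 10 genes, against 20.6%, 16% and 3.47% of all genes. Irak3, the member that differed in TET iTKO, was at 1301 and 1268 normalised counts in unstimulated TDG iKO cells and at 1119 and 730.9 in WT. The knockout libraries lay above the WT libraries, and the log2 difference was 0.46 with a 95% interval of -0.10 to 1.02 (SE 0.286, DESeq2 adjusted p = 1). It rested on the spread of the WT pair, since it was 0.79 and called without WT 0 h replicate 1 (DESeq2 adjusted p = 0.0237, in a fit that called 1177 genes in place of 0) and 0.22 without WT 0 h replicate 2. At 6 h the log2 difference of Irak3 was 0.00, with an interval of -0.55 to 0.55.

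The intervals show which differences the Tdg cohort could have missed. For Myd88 the 95% interval of the log2 difference was -0.51 to 0.52 at 0 h and -0.50 to 0.53 at 6 h, and for Irak4 it was -0.60 to 0.50 at 0 h. For Ticam1 the interval reached from -0.78 to 0.95 at 0 h. Over the 10 genes the intervals covered folds of 0.517 to 2.16 at 0 h and 0.522 to 1.96 at 6 h, and many of them held the fold of 1.47 seen for Irak3 in TET iTKO. The change of the KLA response by loss of TDG was not called for any member either (0 of 10, beside 0% of genes tested and 37 genes, 0.246%, at an unadjusted p under 0.05), with -0.46 for Irak3 (SE 0.401) and 0.01 for Myd88 (SE 0.372).

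The effect of TET loss was also set against that of TDG loss, each knockout against its own WT, in a fit of all 16 BMDM libraries. No member was called at 0 h (0 of 10, beside 0.355% of 10992 genes) or at 6 h (0 of 10, beside 0.0765% of 13075 genes), and edgeR called 0 members at either time. At an unadjusted p under 0.05, 0 members passed with either tool, and 6.09% and 3.24% of genes passed with DESeq2. For Irak3 the effect of TET loss minus that of TDG loss was 0.11 on the log2 scale at 0 h (95% interval -0.36 to 0.58, DESeq2 adjusted p = 0.931). Thus a difference in Irak3 between the effects of the knockouts was not shown. For Ticam2 at 6 h it was 0.24 (95% interval -0.49 to 0.98, DESeq2 adjusted p = 1).

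**Figure D2:**
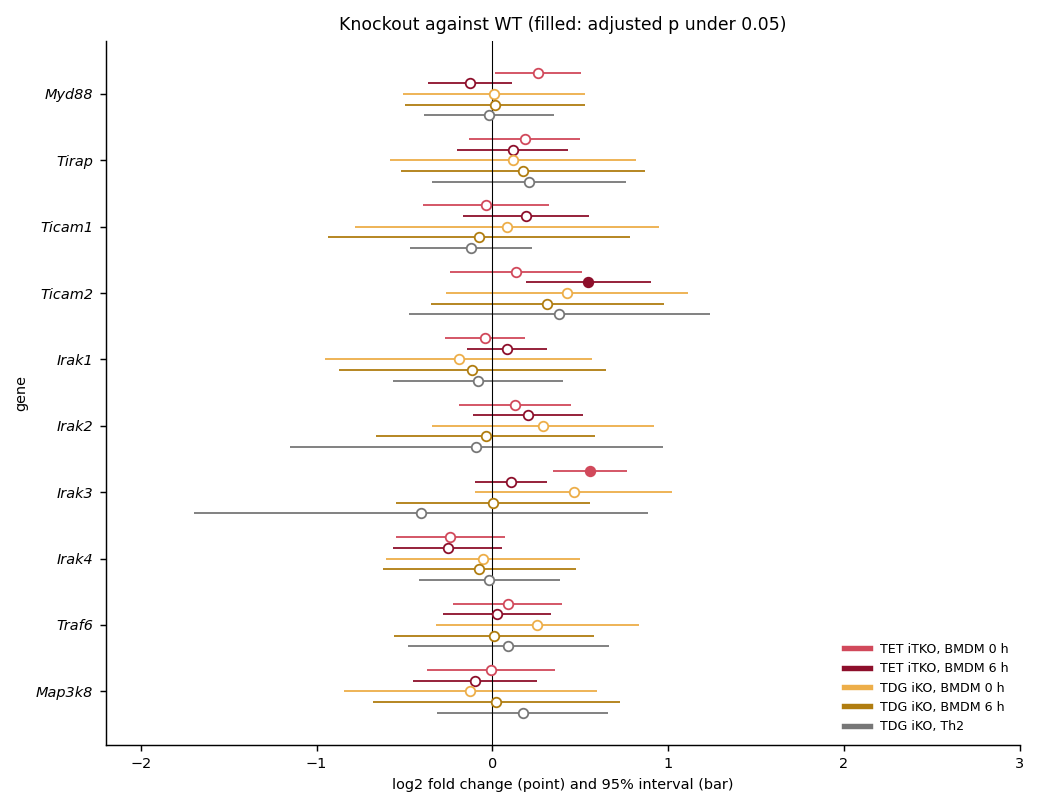
Log2 fold change (knockout minus WT) of the 10 genes for TET iTKO and TDG iKO in unstimulated BMDMs, KLA-stimulated BMDMs and, for TDG iKO, Th2 cells, with bars for the 95% interval of the DESeq2 Wald test and filled points for adjusted p under 0.05. The filled points are Irak3 in TET iTKO at 0 h (0.56) and Ticam2 in TET iTKO at 6 h (0.55).

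In Th2 cells Irak3 and Ticam2 were low in both TDG genotypes. Irak3 was at 10.53, 26.71, 63.6 and 45.12 normalised counts in the 4 WT libraries and at 16.05, 21.8, 31.46 and 31.57 in the TDG iKO libraries, and Ticam2 was at 12.65 to 19.39 in WT and 18.28 to 23.6 in TDG iKO. With replicates 3 and 4 as 1 sample, the 3 TDG iKO samples lay above the WT samples for Ticam2, and the genotypes overlapped for the other 9 genes. With the 4 libraries of each genotype paired by number, Traf6 and Map3k8 were higher and Irak1 was lower in TDG iKO in every pair. Tirap and Ticam2 were also higher in replicates 1, 2 and 3, and Ticam1 was lower in replicates 1, 2 and 4. Replicates 3 and 4 count as 1 sample, so these are not 4 independent pairs. With the replicate number as a block the log2 differences of Traf6, Map3k8 and Irak1 were 0.09, 0.18 and -0.08, and none was called (DESeq2 adjusted p = 0.999). How many of all genes agree in this way was not counted, so the agreement does not set these genes apart. Without the block the log2 differences of the 10 genes ran from -0.41 (Irak3, 95% interval -1.70 to 0.89) to 0.38 (Ticam2, 95% interval -0.48 to 1.24). Some genes differed by replicate. Irak2 was at 154.6 to 185 in replicates 1 and 2 of both genotypes and at 399 to 482.4 in replicates 3 and 4. Traf6 was at 2204 to 2430 in replicates 1 and 2 and at 1418 to 1512 in replicates 3 and 4, and Map3k8 at 1626 to 1932 and 1130 to 1370.

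The balance of the 10 genes differed between Th2 cells and macrophages. Compared with unstimulated WT BMDMs of both cohorts (n = 4), WT Th2 cells (n = 3) had more Traf6 and Map3k8 mRNA and less Myd88, Tirap, Ticam2, Irak2, Irak3 and Irak4, and Ticam1 and Irak1 were not called. Traf6 was at 1418 to 2214 normalised counts in the WT Th2 libraries and at 392.9 to 615.1 in the BMDM libraries, a log2 difference of 1.89 (SE 0.272, DESeq2 adjusted p = 2.5e-11). Map3k8 was at 1130 to 1700 and at 252.8 to 444.8, a log2 difference of 2.21 (SE 0.294, DESeq2 adjusted p = 3.95e-13). Neither gene overlapped between the cell types.

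Of the members that were lower in Th2 cells, Irak3 fell from 730.9 to 1430 normalised counts in BMDMs to 10.53 to 63.6 (log2 difference -5.17, SE 0.478, DESeq2 adjusted p = 5e-26), and Ticam2 fell from 207.1 to 306.2 to 12.65 to 19.39 (log2 difference -4.03, SE 0.33, DESeq2 adjusted p = 7.47e-33). These 2 genes were the ones closest to absent in Th2 cells. The smaller decreases were -1.53 for Tirap, -1.51 for Irak2, -1.26 for Irak4 and -1.005 for Myd88 (SE 0.217 to 0.4, DESeq2 adjusted p at most 0.00045). Ticam1 differed by -0.40 (95% interval -0.88 to 0.09) and Irak1 by -0.27 (-0.83 to 0.30). The 8 called members stand beside a background of 54.8% of 13913 genes called, 29% higher and 25.8% lower. The cell types did not overlap for 8 of 10 members, against 57.5% of genes, so a call in this comparison is not particular to these genes. With the libraries that the labels number 1 to 12 alone, which held both cell types, these 8 members were again called, with -5.67 for Irak3 and -2.12 for Irak2.

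Over the 10 groups the members differed widely in range. The ratio of the highest to the lowest group mean of normalised counts was 318 for Irak3 and 94 for Ticam2, then 10.1 for Irak2, 5.76 for Map3k8, 4.75 for Myd88, 4.36 for Traf6, 4 for Tirap, 2.53 for Irak4, 2.18 for Ticam1 and 1.36 for Irak1. Irak1 was the steadiest, with all 9 pairs of neighbouring groups in its order overlapping. For Irak3 the order ran from TET iTKO at 6 h (7343 ± 392, SD, n = 2) down to Th2 TDG iKO (23.12 ± 7.82, SD, n = 3), and 4 of 9 neighbouring pairs overlapped. For Ticam2 it ran from TDG iKO at 6 h (1489 ± 451, SD, n = 2) to Th2 WT (15.84 ± 2.94, SD, n = 3), with 5 of 9 pairs overlapping. Traf6 and Map3k8 ran the other way, with the highest means in Th2 TDG iKO (2081 ± 499 and 1684 ± 288, SD, n = 3). Myd88 was highest in TDG iKO at 6 h (4696 ± 557, SD, n = 2), and its unstimulated level was lower in WT of the Tet cohort (1648 ± 9.22, SD, n = 2) than in WT of the Tdg cohort (2386 ± 317, SD, n = 2), a difference between cohorts that was not tested.

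Levels of different genes were compared per kilobase of exon. In unstimulated WT BMDMs Myd88 led with 783 normalised counts per kb, ahead of Irak1 with 318 and Irak3 with 309, and Traf6 was lowest with 66.7. After KLA Irak3 led with 1880 per kb, ahead of Myd88 with 1540, and Irak2 rose from the fifth place (138) to the third (388). In WT Th2 cells Myd88 led with 388 per kb, followed by Map3k8 with 331, Irak1 with 262 and Traf6 with 247, while Irak3 (8.31) and Ticam2 (4.03) came last. The exon length is that of all annotated transcripts joined, so these levels depend on which transcripts the cells use.

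**Figure D3:**
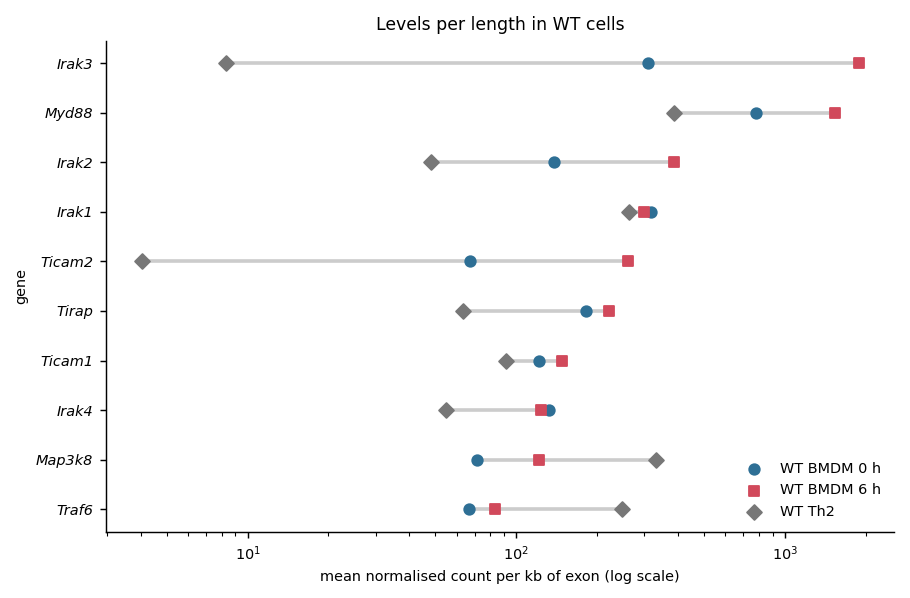
Normalised counts per kb of exon (log axis) of the 10 genes in WT BMDMs at 0 h, WT BMDMs at 6 h of KLA and WT Th2 cells, as means over the libraries of each kind. Irak3 moves from 309 to 1880 with KLA and is at 8.31 in Th2 cells, whereas Irak1 stays between 262 and 318.

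Another 41 genes of the pathway were grouped by role in 6 lists to place the members among their partners. After KLA, 18 of 41 were called higher and 2 lower in WT of the Tet cohort, 17 and 2 in TET iTKO, 8 and 0 in WT of the Tdg cohort and 8 and 1 in TDG iKO, against the shares of all genes given above. The same 8 genes were called higher in all 4 groups: Cd14, Ikbke, Tank, Nfkb1, Map2k1, Tnfaip3, Peli1 and Tifa. The median log2 change over the list was 0.20, 0.21, 0.46 and 0.34 in these groups.

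In the receptor complex Cd14, which hands lipid A to TLR4, was the largest call in every group, with log2 changes of 2.20 to 2.95. Tlr4 itself fell by 0.91 in WT of the Tet cohort (SE 0.134, DESeq2 adjusted p = 2e-10), by 1.04 in TET iTKO (DESeq2 adjusted p = 3.06e-13) and by 1.17 in TDG iKO (DESeq2 adjusted p = 0.0453), and its change of -0.94 in WT of the Tdg cohort was not called. In the relay from TRAF6 to NF-kB, 3 of 9 genes were called in each group of the Tet cohort and 0 of 9 in the Tdg cohort, the largest being Ikbkg, the scaffold of the IKK complex, at 0.76 in WT. In the TRIF branch 4 of 6 genes were called in the Tet cohort and 2 of 6 in the Tdg cohort, where the largest call was the IKK-related kinase gene Ikbke in WT of the Tet cohort (1.65) and of the Tdg cohort (1.93), and Tank in TET iTKO (1.23). Nfkb1, which encodes the p105 precursor that holds TPL-2, rose by 1.58 in WT of the Tet cohort and 2.46 in WT of the Tdg cohort and was called in all 4 groups. Among 12 inhibitors and modifiers, 7 were called in WT of the Tet cohort, 6 in TET iTKO and 3 in each group of the Tdg cohort, and Tnfaip3, the gene of the deubiquitinase A20, rose by 1.34 to 2.41.

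In unstimulated TET iTKO cells 4 of 41 of these genes were called higher and 0 lower, against 4.38% and 3.12% of all genes tested. They were Cd14 (log2 difference 1.64, SE 0.318, DESeq2 adjusted p = 1.57e-05), Il1r1 (2.41, DESeq2 adjusted p = 8.94e-07), Ikbke (0.52, DESeq2 adjusted p = 0.000124) and Pik3ap1 (0.34, DESeq2 adjusted p = 0.0253), which encode a lipid A co-receptor, the IL-1 receptor, an IKK-related kinase and a PI3-kinase adaptor. At 6 h 2 of 41 were called higher, against 3.24% of all genes, and these were Il1r1 (2.54, DESeq2 adjusted p = 0.000233) and Il18rap, a subunit of the IL-18 receptor that was at 0 in both WT libraries and had a mean of 12.34 normalised counts in TET iTKO. Il18rap was named because there were few calls and after its values were seen. Cd14 was also the single gene of the 41 called for the TET effect minus the TDG effect, at 0 h (2.25, DESeq2 adjusted p = 0.000169). Loss of TDG gave 0 calls among the 41 genes in BMDMs and in Th2 cells.

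Between WT Th2 cells and unstimulated WT BMDMs 6 of the 41 genes were called higher and 15 lower. Of all 13913 genes tested 29% were called higher and 25.8% lower. All 3 genes of the receptor complex were lower in Th2 cells, with -9.98 for Cd14 and -7.27 for Tlr4. Among IL-1 family receptors Il18r1 and Il18rap were higher and Il1rap, the shared accessory chain, was lower (-1.49, DESeq2 adjusted p = 0.00369). Tank (-2.03) in the TRIF branch and Ikbkg (-1.15) in the NF-kB relay were lower, and Nfkb1 was higher (1.83). Of the inhibitors, Sigirr, an inhibitory receptor of the IL-1 family, was the largest call, 8.21 higher on the log2 scale.

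**Figure D4:**
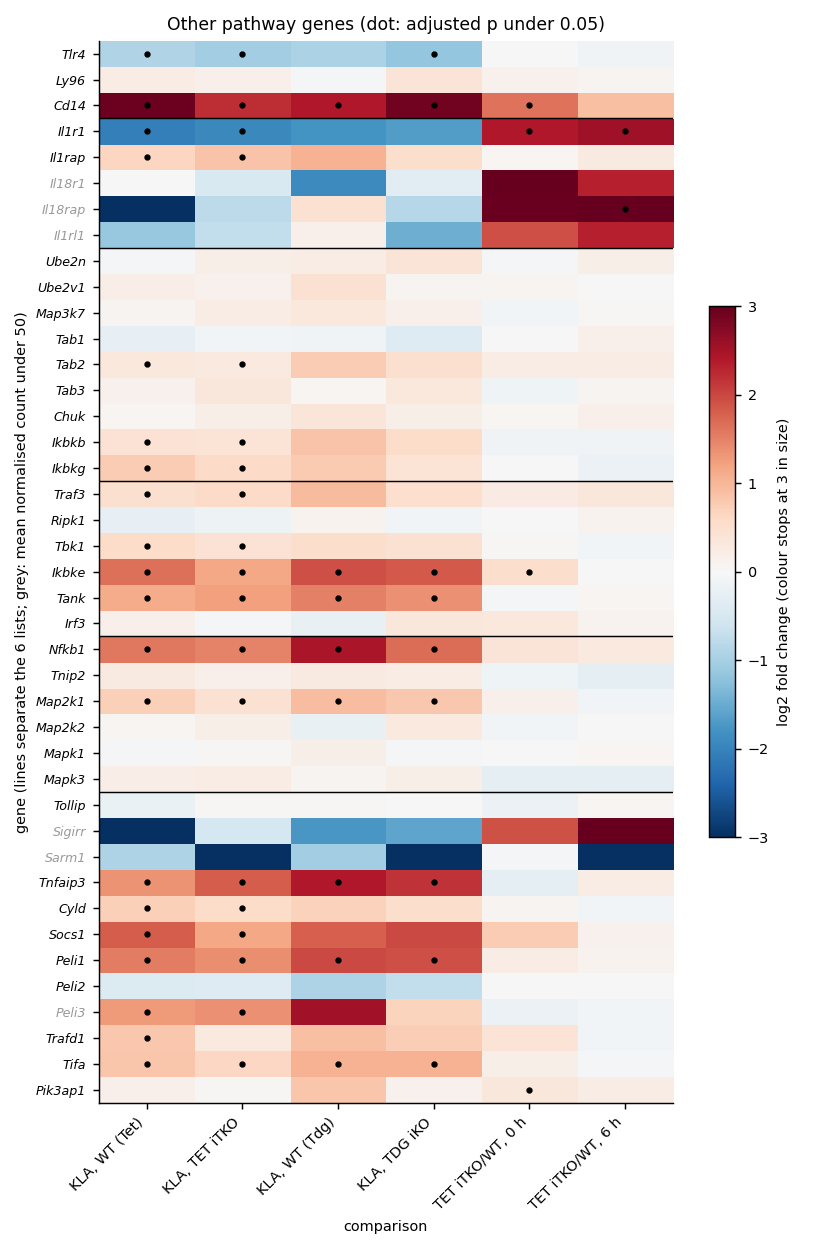
Log2 fold changes (colour scale) of the 41 other pathway genes, in rows grouped by list, in the 4 KLA comparisons and in TET iTKO against WT at 0 h and 6 h, in columns. A dot marks DESeq2 adjusted p under 0.05, and gene names in grey have a mean normalised count under 50. Dots run across all 4 KLA columns for 8 genes, among them Cd14, Nfkb1 and Tnfaip3.

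The genes whose pattern over the 16 BMDM libraries was most like that of each KLA-responsive member were found by Pearson correlation of log2 (normalised count + 1) over 9465 genes, as a description. The libraries fall into a 0 h and a 6 h group and share their cultures' treatment, so the points are not independent. For Irak3 they were Pde4b (r = 0.995) and Igsf6 (r = 0.993), for Irak2 Peli1 (r = 0.984) and Hbp1 (r = 0.979), for Ticam2 Nck1 (r = 0.983) and Lcp2 (r = 0.981), and for Myd88 Sfpi1 (r = 0.984) and Mtmr14 (r = 0.972). Among the members themselves r was 0.978 for Ticam2 and Irak2 and 0.952 for Ticam2 and Irak3, and it was lower for Myd88 and Irak3 (0.781).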

How the data were processed

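Polyadenylated RNA of 24 libraries was sequenced from directional libraries. The authors aligned reads to mm9 with HISAT2 and deposited raw read counts per gene from HTSeq. Which annotation was counted, with which strand setting and with which releases of HISAT2 and HTSeq, is not given in the sources used here. Pairs that were not assigned to a gene made up 32.82% to 51.64% of a library and were left out.

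Groups and replicate numbers came from the sample labels. The labels do not say whether replicates came from separate mice. Xist differed widely between replicates of 3 groups, as different animals would give. For the other groups p-values measure only the spread between these samples, which may be technical. R 4.3.3 and DESeq2 1.42.0 were used for Wald tests of the counts (median-of-ratios size factors, Benjamini-Hochberg adjustment, threshold 0.05), following the study's methods, which name DESeq2 1.30.0. Each BMDM cohort of 8 libraries was fitted together, the 8 Th2 libraries as 3 samples a genotype with replicates 3 and 4 summed, and the cell types on the groups compared. Intervals are 95% Wald intervals. Alternatives were edgeR 4.0.16 with TMM scaling, TMM factors in DESeq2, at least 10 counts in 2 samples, the replicate block, fits of the groups compared alone, other sets of libraries and leaving out each replicate. A cell type fit on library numbers 1 to 12 was added after seeing the data. Positions and exon lengths came from GENCODE vM1 (mm9).

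The members and lists were chosen with earlier results of these data known. Named pathway genes were those of each list with the largest called change whose mean normalised count reached 50 and, in counts of 5 or fewer and for the shared calls, all genes concerned. Tlr4, Il18r1 and Il18rap were named after their values were seen. The summed level of 1 marker list is not reported here.

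The pairing was checked by the correlation of same-numbered libraries' deviations from their group means. It was 0.361 to 0.823 between 0 h and 6 h of a genotype, where the labels give no shared mouse. Between genotypes it was 0.0175 and 0.065 in the Tet cohort, 0.313 and 0.822 in the Tdg cohort, and 0.51 to 0.919 in Th2 cells. The tests were tested on simulated data in which 200 genes differed by a log2 value of 2. The share that DESeq2 called was 97% in the Tet cohort (13562 genes), 90.5% in the Tdg cohort (12093), 94% in Th2 cells (11488), 81% for the TET effect minus the TDG effect (11906) and 93.5% between cell types (12800), and 6.73%, 18.1%, 28.8%, 16.1% and 19% of its calls were false. In the same order edgeR called 98%, 75.5%, 87%, 65.5% and 79.5% of them. Of its calls 5.77%, 5.03%, 7.45%, 2.96% and 3.64% were false. Smaller differences were not simulated.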

Additional observations from a re-analysis of the deposited data

Results flagged for a closer look

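The KLA response of Irak3 was called as different between TET iTKO and WT BMDMs in a single setting. That test of the difference itself had the replicate number nested in genotype as a block. The estimate was -0.454 on the log2 scale (SE 0.125, DESeq2 adjusted p = 0.0161), that is, a smaller rise in TET iTKO, from a higher unstimulated level. Without the block the estimate was -0.45 (SE 0.151) and was not called (DESeq2 adjusted p = 0.29), nor was it with the replicate number as a block shared by the genotypes (DESeq2 adjusted p = 0.143), and edgeR gave an adjusted p of 0.538. For loss of TDG the change of the KLA response of Irak3 was -0.46 (SE 0.401) and was not called. Groups of 2 or 3 samples were too small to be examined for outlying libraries.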

How the results depend on the processing

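Counts of members called kept their value in most settings, and no member changed direction among its called results. For TET iTKO against WT at 6 h the count was 1 and became 0 with edgeR and with the groups compared alone. For the change of the KLA response by TET it was 0 and became 1 with the nested replicate block (Irak3, -0.454), and the replicate block changed no other call of a member. Leaving out each replicate gave 3 to 5 members for KLA in WT of the Tdg cohort (4 with all libraries), 2 to 4 in TDG iKO (4), 0 to 1 for TET iTKO at 6 h (1) and 0 to 1 for TDG iKO at 0 h (0), with the lowest count in TDG iKO without 6 h replicate 2. Of the values of single members, 1514 kept their side of the threshold, 13 lost a call and 3 gained one. The 1514 include values called in no setting whose direction changed between settings. Over all genes, KLA in the Tdg cohort gave 1001 calls in WT and 824 in TDG iKO, against 413 and 346 with edgeR, 1809 and 1375 with the replicate block and 1822 and 1312 with the nested block. The change of the KLA response by TET gave 52, against 1 with edgeR, 90 with the block and 225 with the nested block. TDG loss gave 0 at 0 h and in Th2 cells, against 4 and 15 with the block, and the TET effect minus the TDG effect gave 39 at 0 h and 10 at 6 h, against 0 and 1 with edgeR and 186 and 101 with the block. Without WT 0 h replicate 1 of the Tdg cohort, the calls over all genes went from 0 to 1177 for TDG iKO at 0 h, from 0 to 245 for the change of the KLA response by TDG, from 39 to 2403 for the TET effect minus the TDG effect at 0 h and from 1001 to 2218 for KLA in WT. Without replicate 2 of that group, the shallowest library with 4982950 counts, they were 2, 0, 28 and 797. The cause was not tested. Groups of 2 libraries limit the precision of the BMDM comparisons.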
